A study of Mus musculus with 12 samples.

Results

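CD8 T cells that carried RNA of the checkpoint receptor gene Pdcd1 (PD-1) and of the transcription factor gene Tcf7 (TCF-1), but none of the terminal exhaustion marker Havcr2 (TIM-3), were examined in MC38 tumours of mice. They are called progenitor-like cells here. A cell was a progenitor-like cell where it had at least 500 detected genes and at most 10% mitochondrial UMIs (unique molecular identifiers, counted RNA molecules). It also had to have a UMI of Cd8a or Cd8b1, none of Cd4 and Foxp3, a UMI each of Pdcd1 and Tcf7, and no UMI of Havcr2. There were 180 such cells among 2740 kept cells (6.57%), and they were 11.5% of the 1566 CD8 T cells defined by the same Cd8a, Cd8b1, Cd4 and Foxp3 criteria. The rule was read from the measured RNA, so these 7 genes are described and not tested.

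All animals were heterozygous for Kaede (genotype Kaedehet), a photoconvertible protein that turns from green to red fluorescence under violet light, and all carried tumours of MC38, a murine colorectal cancer cell line. The lymph node draining the tumour was lit at 405 nm on day 14 in every group, so red tumour cells are those that left the lit node, or their descendants. The conditions were tumour irradiation with FTY720 harvested at day 3 (RT+FTY720 day 3), FTY720 alone (FTY720 day 3), irradiation alone (RT day 3), no irradiation (NT day 3), irradiation at day 1 (RT day 1) and no irradiation at day 1 (NT day 1). Irradiation was a single 12 Gy dose straight after the light. FTY720, which keeps lymphocytes from leaving lymph nodes through sphingosine-1-phosphate receptors, was given at 10 µg on day 15. Day 1 and day 3 tumours were harvested 24 h and 72 h after the light. Each condition had 2 pools of 4 tumours from 4 mice. Live CD90.2+ cells were enriched for CD4 and CD8, sorted by Kaede colour and marked with hashtag antibodies, which gave 24 hashed samples in 4 droplet wells with gene expression and T-cell receptor (TCR) libraries. The wells with both day 1 conditions and NT day 3 were apart from the wells with the other day 3 conditions, so at day 3 the well and the treatment cannot be told apart between NT and the rest.

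Exhausted CD8 T cells arise where antigen persists, as in chronic infection and tumours. In mice a Tcf7-expressing progenitor subset renews itself, keeps Slamf6 and gives rise to Tcf7-negative cells with Havcr2, granzymes and cytokines, and the factor Tox sets up the exhausted state in both. Naive and central memory CD8 T cells also express Tcf7, together with the lymph node homing receptor gene Ccr7.

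The progenitor-like cells were few and uneven over the pools, at 2 and 8 in RT+FTY720 day 3, 2 and 7 in FTY720 day 3, 5 and 4 in RT day 3, 14 and 35 in NT day 3, 14 and 38 in RT day 1 and 14 and 37 in NT day 1. Their median depth was 21015.5 UMIs a cell, against 25254 in the 496 Havcr2+ Tcf7- Pdcd1+ CD8 cells (Havcr2+ cells below) and 20813 in the 477 Tcf7+ Pdcd1- CD8 cells (Pdcd1- cells below). No kept cell shared its barcode sequence with a cell of another well. Counts were summed per pool and cell class before any test, and a pool was used where each class had at least 5 cells.

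The colours of the hashtags did not match between sources in replicate 2. In the count matrices, the colour name of each hashtag was the opposite of the colour that the sample labels gave to the same tag number in all 12 hashed samples of replicate 2, and in 0 of 12 of replicate 1. The matrix names were used, and the label colours as an alternative. The tag pair of the NT day 1 samples shows this, with tag C0301 named Red in replicate 1 and Green in replicate 2:
C0301: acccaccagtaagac
C0302: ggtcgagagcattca
By matrix names 43.3% of the progenitor-like cells were red, and by label colours 57.2%. The Havcr2+ cells were 61.3% red by matrix names and 48.6% by label colours.

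The TCR sequences also crossed the replicate numbers. Identical nucleotide pairs of alpha and beta chains were shared 64 times, in 10 of 12 sample pairs, between samples of 1 condition with the other replicate number and the other matrix colour, which carry the same tag. Samples of 1 condition with the other replicate number and the same matrix colour shared 4 such pairs, and samples of 1 pool with the other colour shared 6. Samples of other conditions in the same well shared 0 over 48 sample pairs. Of the 167 progenitor-like cells with both chains, 18 had a pair found under the same tag in the other replicate. Each comparison was therefore also computed with pools joined by the shared tag and, where that leaves more than 1 value a group, with replicates summed per condition.

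The label of these cells was set against genes that the rule did not use. Tox, the exhaustion factor, was detected in 85.0% of progenitor-like cells, 73.4% of Havcr2+ cells and 68.6% of Pdcd1- cells. The surface receptor Slamf6 was detected in 60.0%, 26.2% and 60.8% of the same classes, and the factor Id3 in 22.8%, 4.64% and 35.6%. After thinning to 10000 UMIs, which left out 10 shallower progenitor-like cells, the shares were 48.8%, 16.1% and 44.9% for Slamf6 and 74.1%, 60.3% and 55.4% for Tox. Cxcr5, a chemokine receptor of progenitors in chronic infection, had a UMI in 4.44%, 0.403% and 18.0%. Both Tox and Slamf6 were present in 50% of the progenitor-like cells, 20.4% of the Havcr2+ cells and 45.1% of the Pdcd1- cells.

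Part of the progenitor-like cells carried naive or central memory RNA. Ccr7 had a UMI in 34.4% of the 180 cells, against 9.07% of the Havcr2+ cells and 69.0% of the Pdcd1- cells. Tox without Ccr7 was found in 100 of the 180 cells (55.6%). The 118 cells without a Ccr7 UMI were also analysed alone. The gate reads low counts: Pdcd1 stood at 1 UMI in 56 of the 180 cells and at 3 or more in 97, and Tcf7 at 1 UMI in 34 and at 3 or more in 110. In 358 CD8 cells with Ccr7, Lef1 and Klf2, which should have little PD-1 but can include progenitor-like cells, Pdcd1 had a UMI in 14.0% and Havcr2 in 7.26%, at a median of 23497.5 UMIs a cell. Tox had a UMI in 75.4% of these 358 cells, against 85.0% of the progenitor-like cells, so its detection separates them little. CD8 RNA was well above its background, with medians of 20 UMIs of Cd8a and 23 of Cd8b1. In 534 Cd4+ Foxp3+ cells with a median depth of 20297.5 UMIs, Cd8a had a UMI in 3.18% and Cd8b1 in 17.4%.

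At the threshold, the 12 cells with exactly 1 UMI each of Pdcd1 and Tcf7 had Slamf6 at 41.4 CPM (counts per 1000000 UMIs of their sum), Ccr7 at 10.4, Lag3 at 57.0, Gzmb at 989.6 and Ifng at 166. The 102 cells with at least 2 UMIs of both had Slamf6 at 115, Ccr7 at 185, Lag3 at 202, Gzmb at 424 and Ifng at 247 CPM. Just outside, 26 Pdcd1+ Tcf7+ CD8 cells with 1 Havcr2 UMI had Slamf6 at 70.2, Ccr7 at 10.2, Lag3 at 167, Gzmb at 648 and Ifng at 584. The 98 with 2 or more Havcr2 UMIs had Slamf6 at 68.0, Ccr7 at 15.8, Lag3 at 234, Gzmb at 1046 and Ifng at 7674 CPM. Ifng therefore stood far higher in the cells well past the Havcr2 threshold than in any group on the inner side of it, while Gzmb in the 12 cells was near its level there, and their Ccr7 was near that of the cells outside.

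Most defining markers of other cell types were at or near 0, and some other genes of those lists were detected. The keratins Krt8, Krt18 and Krt19, the B-cell gene Ms4a1, and Ncr1 and Zbtb16 had no UMI in the 180 cells, which allows a share of up to 1.67% for each. Epcam had a UMI in 17 cells (9.44%), the myeloid gene Lyz2 in 6 (3.33%), and Cd79a, C1qa and Csf1r in 1 each. More often detected were the immunoglobulin gene Ighm, in 85 cells (47.2%), Cd68 in 31 (17.2%), Cd74 in 27 (15.0%) and Cd79b in 22 (12.2%). Their part in the results was not tested. Over pools, the summed myeloid list ran over 18.3 to 127 CPM in progenitor-like cells and 18.5 to 219 in Havcr2+ cells. The CD4 and Treg list, whose genes Ctla4, Ikzf2 and Il2ra CD8 T cells also express, ran over 352 to 866 and 629 to 1704. The B-cell list ran over 19.5 to 103 and 0 to 26.1. The NK and innate-like list ran over 37.3 to 401 and 2.57 to 170, and the epithelial list, with Epcam alone above 0 in progenitor-like cells, over 0 to 37.4 and 0 to 3.70.

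The first comparison set progenitor-like cells against Havcr2+ cells of the same 9 pools. Of 8671 genes tested, 1450 (16.7%) passed an adjusted p of 0.05, and 2518 (29%) an unadjusted p of 0.05, in edgeR's quasi-likelihood test with the pool as a block. Of all genes tested, 746 (8.6%) were higher and 704 (8.12%) lower in progenitor-like cells. Levels in the comparisons of genes are CPM on library sizes scaled by TMM, adjusted p-values are Benjamini-Hochberg from edgeR over all genes tested, and fold changes are log2 with their standard errors. Progenitor-like cells had more RNA of most lymph node homing and interferon-stimulated genes tested, and less RNA of perforin and of several granzymes, cytokines and exhaustion genes. Gzmk, Ctla4, Cd160, Cd101 and Cd38 did not pass.

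Of 15 tested genes of the progenitor list, 5 were higher and 2 lower, with a median log2 fold change of 0.65 against -0.01 over all genes. Slamf6 was at 62.5 to 219.7 CPM (median 117) in progenitor-like cells and at 6.98 to 57.1 CPM (median 29.7) in Havcr2+ cells. The groups did not overlap, and the log2 fold change was 1.97 ± 0.25 (adjusted p = 4.56e-05). Lef1, a TCF-1 partner factor, was at 37.9 to 213 CPM (median 93.5) in progenitor-like cells and at 0 to 26.0 CPM (median 22.2) in Havcr2+ cells, again without overlap (log2 fold change 2.52 ± 0.24). Id3, which restrains effector differentiation, was higher in 7 of 9 pools with a log2 fold change of 2.59 ± 0.44 (adjusted p = 0.000816). Btla, an inhibitory receptor, and Gpr183, an oxysterol receptor that guides cell positioning, were also higher, at log2 fold changes of 1.22 and 0.65.

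Not all progenitor genes moved that way. Xcl1, a chemokine that attracts cross-presenting dendritic cells, was at 30.3 to 2098 CPM (median 384) in progenitor-like cells and at 99.9 to 7801 CPM (median 2903) in Havcr2+ cells. It was lower in 8 of 9 pools, with a log2 fold change of -2.28 ± 0.61 (adjusted p = 0.0165). The costimulator Icos was lower at a log2 fold change of -0.79 ± 0.14. Tox had medians of 339 CPM in progenitor-like cells and 303 CPM in Havcr2+ cells, with overlapping pools, and did not pass (log2 fold change 0.19 ± 0.35, adjusted p = 0.786). The other genes of the list, Cd28, Ikzf2, Bach2, Tnfsf8, Myb, Il7r and Bcl6, did not pass either, at log2 fold changes between -0.51 and 0.95, and Cxcr5 was too low to be tested.

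**Figure D1:**
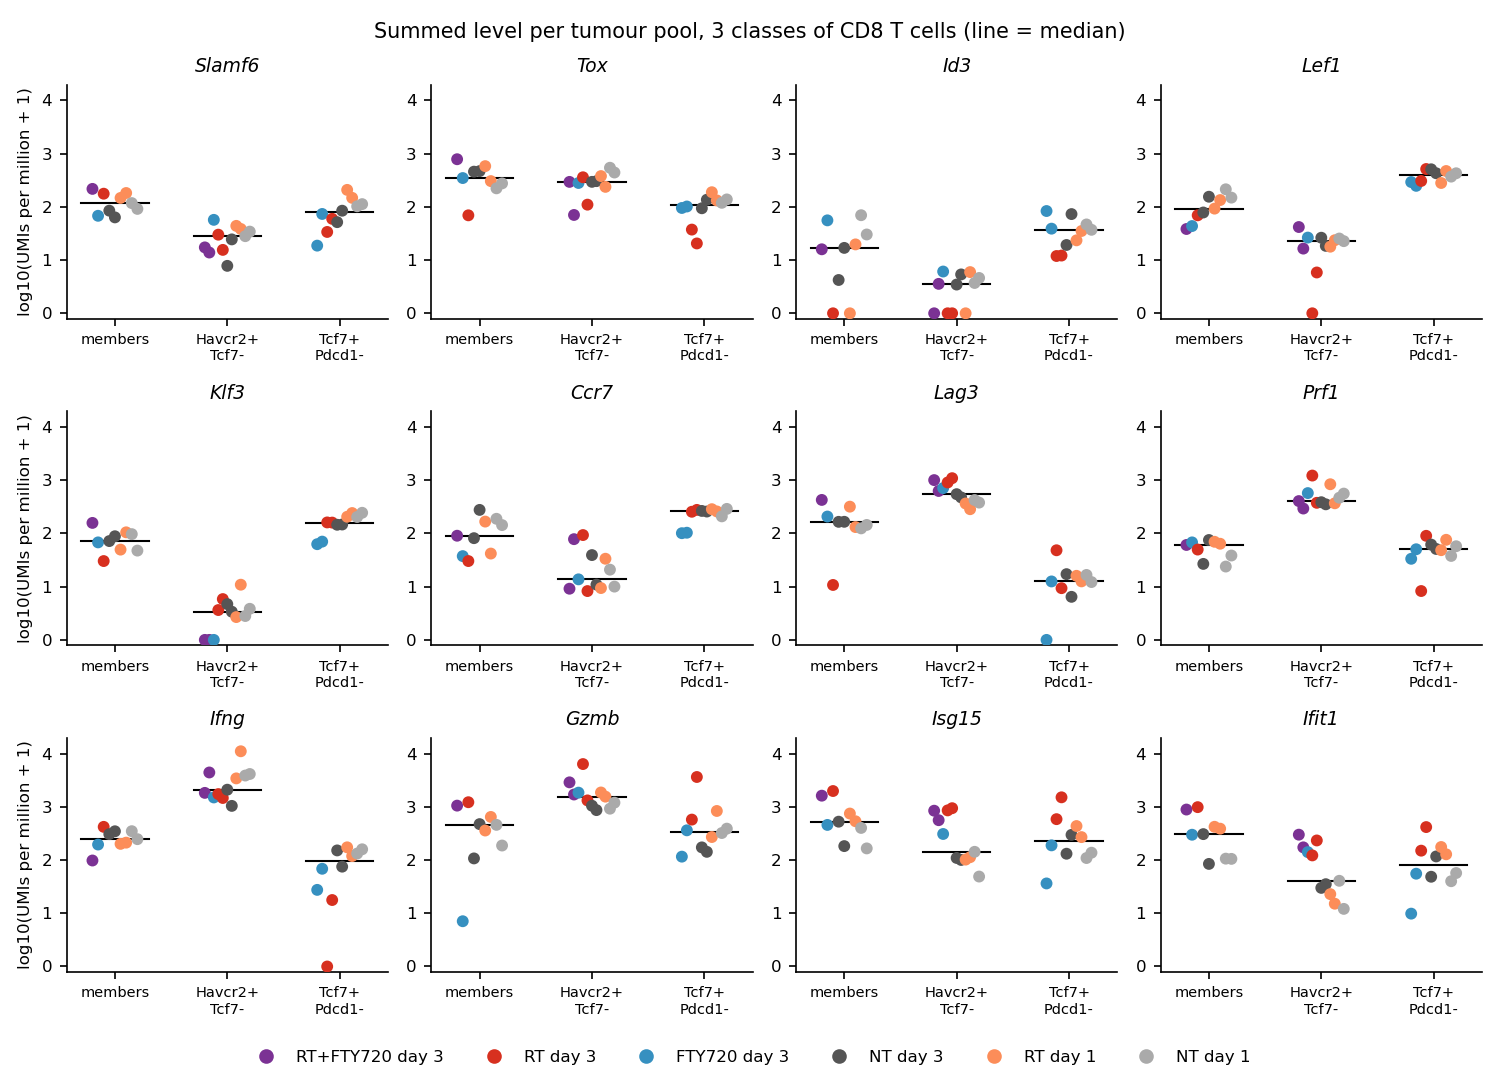
Summed level per tumour pool in progenitor-like cells (members), Havcr2+ Tcf7- cells and Tcf7+ Pdcd1- cells, as log10 of unscaled CPM (UMIs per 1000000 of the sum) plus 1, coloured by condition, with the median as a line. Slamf6 does not overlap between progenitor-like and Havcr2+ cells, and Tox overlaps. Lef1 runs over 37.4 to 213 in progenitor-like cells and 0 to 40.8 in Havcr2+ cells.

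Naive and lymph node homing genes were higher for 8 of 13 tested and lower for 0, with a median log2 fold change of 1.78. Klf3, a quiescence-associated factor, was at 30.3 to 159 CPM (median 74.1) in progenitor-like cells and at 0 to 10.7 CPM (median 2.35) in Havcr2+ cells, without overlap (log2 fold change 4.45 ± 0.30). Ccr7, S1pr1, the egress receptor on which FTY720 acts, and Foxp1, a factor of T-cell quiescence, were higher at log2 fold changes of 2.30, 1.78 and 1.01. In the cells without Ccr7, 6 of 12 tested genes of this list were higher and 2 lower, with a median of 0.68, and Ccr7 itself is lower there by construction. In that subset Slamf6 and Lef1 still passed, at log2 fold changes of 1.42 (adjusted p = 0.00633) and 2.12, and Id3 did not (2.01, adjusted p = 0.0605).

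The effector programme was lower. Of 20 tested cytotoxic genes, 17 were lower and 0 higher, with a median log2 fold change of -1.83. Perforin RNA (Prf1) was at 22.9 to 74.5 CPM (median 60.6) in progenitor-like cells and at 301 to 1253 CPM (median 477) in Havcr2+ cells. All 9 pools were lower and the groups did not overlap (log2 fold change -3.34 ± 0.22, adjusted p = 8.59e-08). Ifng, the cytokine interferon gamma, was at 98.5 to 435 CPM (median 239) in progenitor-like cells and at 1027 to 11948 CPM (median 3524) in Havcr2+ cells, also without overlap (log2 fold change -3.57 ± 0.38). Gzmb, the main cytotoxic granzyme, was at 5.95 to 1265 CPM (median 458) and at 855 to 6522 CPM (median 1676) in the same order, lower in 9 of 9 pools but with overlapping ranges (log2 fold change -2.07 ± 0.37).

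Granzymes C, D and F had few or no UMIs in progenitor-like cells. Gzmf had 0 UMIs in progenitor-like cells and 5175 UMIs in Havcr2+ cells of the 9 pools, and Gzmd had 0 and 197. Against a floor of 3 UMIs over the whole group, Gzmf was at least 562-fold lower and Gzmd at least 21.4-fold lower. The inflammatory chemokines Ccl3 and Ccl4 were lower without overlap, at log2 fold changes of -5.81 ± 0.51 and -4.94 ± 0.47. Ccl3 had a median of 41.7 CPM in progenitor-like cells and 3222 CPM in Havcr2+ cells. Further genes with large decreases were Gzma (-4.30), the cytokine gene Il2 (-4.40) and Spp1 (-7.30), which encodes osteopontin and had 1 UMI in progenitor-like cells and 851 in Havcr2+ cells. Gzmk, Ccl5 and Ctsw were the cytotoxic genes that did not pass, at log2 fold changes of 0.26, 0.08 and 0.03.

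Terminal exhaustion genes were lower for 8 of 12 tested and higher for 0, with a median log2 fold change of -1.05. The inhibitory receptor Lag3 was at 10.1 to 432 CPM (median 165) in progenitor-like cells and at 307 to 929 CPM (median 468) in Havcr2+ cells, lower in 9 of 9 pools (log2 fold change -1.48 ± 0.26). Rgs16, a regulator of G-protein signalling, was at 0 to 351 CPM (median 208) and at 712 to 1382 CPM (median 916) in the same order, without overlap. Entpd1 (CD39), Prdm1 (Blimp-1) and Tigit were lower at log2 fold changes of -1.83, -2.03 and -1.19. Ctla4, Cd160, Cd101 and Cd38 did not pass, at log2 fold changes of -0.21, -0.64, 0.18 and -0.08.

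Genes induced early after TCR signalling were lower for 11 of 15 and higher for 1, with a median of -1.20. Tnfrsf9 (4-1BB), Irf8 and Irf4 were lower without overlap, at log2 fold changes of -2.08, -2.17 and -1.74, and Egr2 at -2.33. Cd69, an early activation and retention marker, was the exception, at 358 to 1062 CPM (median 625) in progenitor-like cells and 272 to 449 CPM (median 319) in Havcr2+ cells (log2 fold change 0.81 ± 0.13). In green cells alone 3 of 12 tested genes of this list were lower and 1 higher, with a median of -0.45.

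Migration genes split, with 6 of 15 higher and 4 lower. The integrin subunit Itga4 was at 184 to 591 CPM (median 403) in progenitor-like cells and at 23.3 to 127 CPM (median 66.6) in Havcr2+ cells, without overlap (log2 fold change 2.56 ± 0.29). Its partner Itgb7 and the chemokine receptors Cxcr3 and Cxcr4 were higher at 1.16, 1.5 and 2.21. Cxcr6, a receptor of tumour-resident T cells, was lower without overlap, at 192 to 446 CPM (median 223) against 460.0 to 1262 CPM (median 717), and so was Ccr8, at a log2 fold change of -1.54, with overlapping ranges. Cell cycle genes did not pass in either direction (0 of 19, median -0.06), and Mki67 with Top2a was found in 20% of progenitor-like cells and 21.6% of Havcr2+ cells. Of 19 p53 targets, Trp53inp1 (1.02), the death receptor gene Fas (0.81) and the DNA repair gene Ddb2 (0.70) were higher and the antiproliferative gene Btg2 (-0.55) lower. Of 15 dissociation and heat shock genes, Atf3 (-2.54), Hsph1 (-1.01) and Jund (-0.53) were lower. The medians of the p53 and heat shock lists were 0.11 and -0.21. Over all genes tested 16.7% passed, so these few calls are not read as a result about either list.

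Outside the lists, the largest increases included Aff3, a transcription elongation factor gene, at 158 to 321 CPM (median 178) in progenitor-like cells and at 0 to 26.7 CPM (median 10.0) in Havcr2+ cells (log2 fold change 4.23 ± 0.24). Nsg2 and Trim30c were higher at 4.57 and 5.25, both without overlap. The T-box factor Eomes, which is on the NK list and is also expressed by exhausted and memory CD8 T cells, was at 34.6 to 172 CPM (median 65.4) against 0 to 30.5 CPM (median 10.8), without overlap. Il2ra, the high-affinity interleukin 2 receptor chain, was lower at -2.53 ± 0.36. Among genes on the lists of other cell types, Ighm was higher at a log2 fold change of 2.12 and Epcam at 2.45 (adjusted p = 0.0182), and Cd74 lower at -0.93. Their part in the results above was not tested.

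Interferon-stimulated genes, which type I and type II interferons induce through their receptors, were higher for 24 of 25 tested and lower for 0, with a median log2 fold change of 1.63. Ifit1, an RNA-binding antiviral protein gene, was at 83.8 to 1022 CPM (median 320.0) in progenitor-like cells and at 11.4 to 177 CPM (median 33.7) in Havcr2+ cells, higher in 9 of 9 pools (log2 fold change 2.71 ± 0.33, adjusted p = 2.48e-05). Isg15, a ubiquitin-like modifier gene, was at 159.7 to 2054 CPM (median 528) and at 49.1 to 878 CPM (median 121) in the same order, also higher in 9 of 9 pools (1.63 ± 0.19). The ranges overlapped for both, and the higher value was that of the progenitor-like cells within every pool.

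Other members of that list moved alike. Rsad2 (viperin), Gbp2, a guanylate-binding protein gene, Ifit3 and Mx1 were higher at log2 fold changes of 2.78, 2.54, 2.23 and 2.14. Irf9, a signalling factor gene, was higher by less, at 0.63 ± 0.15. Ifi27l2a did not pass (0.70 ± 0.25, adjusted p = 0.0694). Ifit1 and Ifit3 were both detected in 42.8% of progenitor-like cells, 17.3% of Havcr2+ cells and 32.3% of Pdcd1- cells. By matrix colours, 3 of 24 tested genes passed in red cells alone and 23 of 24 in green cells alone, with medians of 1.27 and 1.49. By label colours 2 of 25 passed in red and 22 of 25 in green cells. In the test of the difference between the colours over 4 pools, 0 of 24 genes of the list passed, with a median of -0.09. In cells without Ccr7, 25 of 25 were higher with a median of 1.90.

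The promoters of these genes were searched for the interferon-stimulated response element in its core form GAAANNGAAA, on both strands, from 250 bases before to 50 bases after the RefSeq gene start (GRCm38.p6). Of the 25 genes 19 had a promoter in the table, and 12 of them (63.2%) held the motif, against 3.99% of 27025 promoters and 4.33% of the 6887 matched genes tested in this comparison. The 25 genes are those of the interferon-stimulated list, so the share with the motif describes that list and is no result about these cells. A match describes the sequence and does not show that a factor bound there. The windows of Isg15, Ifit1 and Rsad2 are shown as examples that hold the motif, chosen after their values were seen, with the motif letters in capitals (on the reverse strand the motif reads TTTCNNTTTC):
Isg15 (chr4:156200769-156201068, minus strand): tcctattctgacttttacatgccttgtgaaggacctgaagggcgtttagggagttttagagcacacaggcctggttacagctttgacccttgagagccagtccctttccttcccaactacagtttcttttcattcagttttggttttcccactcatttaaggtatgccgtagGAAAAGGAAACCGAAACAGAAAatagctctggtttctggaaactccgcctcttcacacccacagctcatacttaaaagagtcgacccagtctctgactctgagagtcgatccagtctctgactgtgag
Ifit1 (chr19:34640639-34640938, plus strand): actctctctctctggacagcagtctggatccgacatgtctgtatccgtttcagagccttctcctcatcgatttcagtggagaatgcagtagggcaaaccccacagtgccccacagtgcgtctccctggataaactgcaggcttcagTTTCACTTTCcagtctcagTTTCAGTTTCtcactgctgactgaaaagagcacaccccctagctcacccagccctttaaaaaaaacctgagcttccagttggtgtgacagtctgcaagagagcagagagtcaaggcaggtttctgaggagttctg
Rsad2 (chr12:26456403-26456702, minus strand): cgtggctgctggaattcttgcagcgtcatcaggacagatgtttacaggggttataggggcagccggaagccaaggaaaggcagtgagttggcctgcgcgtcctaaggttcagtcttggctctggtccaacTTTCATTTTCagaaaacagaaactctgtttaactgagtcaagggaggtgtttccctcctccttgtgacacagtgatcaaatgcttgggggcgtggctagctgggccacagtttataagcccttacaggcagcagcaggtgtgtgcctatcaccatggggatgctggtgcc
Isg15 held 3 motifs that overlap, Ifit1 held 2 and Rsad2 held 1.

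The second comparison set progenitor-like cells against Pdcd1- cells, which share Tcf7, in 8 pools. Of 8803 genes tested, 464 (5.27%) passed, 238 (2.7%) higher and 226 (2.57%) lower in progenitor-like cells, and 1618 (18.4%) had an unadjusted p below 0.05. Here the naive and homing genes were lower and the exhaustion genes higher. Of 13 tested homing genes 12 were lower and 0 higher (median log2 fold change -1.36), and of 12 terminal exhaustion genes 7 were higher and 0 lower (median 1.27), against a median of -0.02 over all genes. Since the Havcr2+ and Pdcd1- comparisons share the progenitor-like cells, they are not independent.

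Tox was at 67.9 to 573 CPM (median 311) in progenitor-like cells and at 44.1 to 191 CPM (median 128) in Pdcd1- cells, higher in 8 of 8 pools (log2 fold change 1.39 ± 0.17, adjusted p = 0.000304). Xcl1 was higher in 8 of 8 pools as well, with medians of 533 and 196 CPM (log2 fold change 1.69 ± 0.31, adjusted p = 0.00504). Slamf6 had medians of 100.0 and 95.8 CPM and was higher in 4 pools and lower in 4, and did not pass (log2 fold change 0.03 ± 0.21, adjusted p = 0.976). In the cells without Ccr7 Slamf6 was lower than in Pdcd1- cells, at a log2 fold change of -0.77 (adjusted p = 0.00966). Of the progenitor list, Lef1 (-1.82 ± 0.19), Cxcr5 (-2.58 ± 0.59) and the interleukin 7 receptor gene Il7r (-0.82) were lower, and Id3 did not pass (-0.83 ± 0.37, adjusted p = 0.245). The remaining list genes, Cd28, Icos, Ikzf2, Bach2, Tnfsf8, Myb, Gpr183, Bcl6 and Btla, lay between -1.15 and 1.35 and did not pass.

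The inhibitory receptor genes Ctla4, Lag3, Tigit and Cd160 were higher than in Pdcd1- cells, and Btla did not pass. Ctla4 was at 185 to 359 CPM (median 242) in progenitor-like cells and at 19.1 to 168 CPM (median 53) in Pdcd1- cells, without overlap (log2 fold change 2.03 ± 0.24). Lag3 was higher in 7 of 8 pools, with medians of 148 and 13.7 CPM (3.45 ± 0.38), and Rgs16 in 7 of 8, with medians of 215 and 5.93 CPM (4.72 ± 0.32). Tigit, Cd160 and the stress-responsive factor Bhlhe40 were higher at 1.76, 1.26 and 1.57.

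Klf2, a factor that drives S1pr1, was at 48.9 to 277 CPM (median 190.4) in progenitor-like cells and at 353 to 838 CPM (median 654) in Pdcd1- cells. The groups did not overlap, at a log2 fold change of -1.87 ± 0.24. Ccr7, S1pr1 and the chromatin organiser Satb1 were lower at -1.22, -1.36 and -1.69. The median levels of Ccr7 and Lef1 in progenitor-like cells lay between those of Havcr2+ cells and Pdcd1- cells.

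Of 16 tested cytotoxic genes 3 were higher than in Pdcd1- cells and 1 lower, with a median of 0.36. Ifng was at 185 to 417 CPM (median 272) in progenitor-like cells and at 0 to 175 CPM (median 128) in Pdcd1- cells, without overlap (log2 fold change 1.28 ± 0.34, adjusted p = 0.0438). Gzma was lower at -2.10 ± 0.35. Of 15 early TCR response genes, 4 were higher, among them Tnfrsf9 (1.94) and the orphan nuclear receptor Nr4a2 (1.35), and 2 lower, among them Myc (-1.25). Of 16 migration genes 5 were higher and 1 lower. The residency integrin Itga1 was higher at 1.47 without overlap, Cxcr6 at 1.12 and the chemokine receptor Ccr8 at 3.60 ± 0.36.

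Among genes outside the T-cell lists, Nrn1, which encodes neuritin, Plod2, a collagen lysyl hydroxylase gene, and Tnfrsf4 (OX40) were higher than in Pdcd1- cells at 4.21, 3.03 and 4.76. Slc28a2b, a nucleoside transporter gene, and Cd55, a complement regulator gene, were lower at -5.10 and -2.27. Tnfrsf4 stands on the CD4 and Treg list and Cd74 (2.80) on the myeloid list, and activated CD8 T cells also express both. Of 25 interferon-stimulated genes 7 were higher and 0 lower, with a median of 0.65, among them Rsad2 (1.84), Mx1 (1.56), Ifit1 (1.42) and Isg15 (0.92, adjusted p = 0.0468). With at least 2 UMIs asked of Pdcd1 and Tcf7, 1 of the 25 passed, and with all cells thinned to 10000 UMIs 11 of 24 passed. Cell cycle genes had a median of 0.91 with 0 of 20 passed.

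Red and green progenitor-like cells were compared in the 4 pools with at least 5 cells of each colour, by matrix names. Of 6573 genes 0 passed (0%) in edgeR, 425 (6.47%) had an unadjusted p below 0.05, and DESeq2 called 4. On simulated data this edgeR test recovered 14% of the genes changed at a log2 fold change of 1, and 77% at 2. The interferon-stimulated list had a median log2 fold change of -0.72 with 1 of 25 genes above 0, and the cell cycle list -1.07 with 0 of 18 above 0, against -0.02 over all genes. By label colours, again with 0 genes passed, the medians were -0.56 for the interferon-stimulated list and 1.56 for the cell cycle list, so the direction of the cell cycle list turned. The colour effect in progenitor-like cells was also set against that in Havcr2+ cells in 1 model. No gene of 7721 passed (0%) in edgeR, 509 (6.59%) had an unadjusted p below 0.05, and DESeq2 called 19.

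Irradiation at day 1 was compared over 2 pools with and 2 without, in a fit of 6 pools that also held NT day 3. Of 7726 genes 3 passed (0.0388%), 2 (0.0259%) higher and 1 (0.0129%) lower, and 556 (7.2%) had an unadjusted p below 0.05. Cdkn1a, the p53 target that encodes the cell cycle inhibitor p21, was at 137 and 91.7 CPM in RT day 1 and at 9.32 and 5.48 CPM in NT day 1. The irradiated pools lay well above the unirradiated ones (log2 fold change 4.02 ± 0.45, adjusted p = 0.0251). It had a UMI in 23 of 52 cells (44.2%) in RT day 1 and in 6 of 51 cells (11.8%) in NT day 1. The call was lost with at least 2 UMIs of Pdcd1 and Tcf7 required (log2 fold change 2.34, adjusted p = 0.9998), in the cells without Ccr7 (log2 fold change 5.70, adjusted p = 0.0599), without RT day 1 replicate 1 (adjusted p = 0.172), RT day 1 replicate 2 (0.0897) or NT day 1 replicate 2 (0.0701), and with all cells thinned (log2 fold change 4.05, adjusted p = 0.369). With pools joined by the shared tag, Cdkn1a was not among the genes tested.

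In CPM without TMM scaling (unscaled CPM), Cdkn1a in progenitor-like cells was at 52.3 in RT+FTY720 day 3 (8 cells), 18.3 in FTY720 day 3 (7 cells), 19.5 in RT day 3 (5 cells) and 3.23 and 1.33 in NT day 3. Havcr2+ cells had 99.4 and 51.6 in RT day 1 against 22.6 and 26.1 in NT day 1, and Pdcd1- cells had 65.0 and 69.0 against 2.23 and 12.7. Other p53 targets did not pass, and the 16 tested had a median log2 fold change of 0.83. Malat1, a nuclear long noncoding RNA, was higher, at 5722 and 5117 CPM in RT day 1 and 3121 and 3128 CPM in NT day 1 (log2 fold change 0.79, adjusted p = 0.0492). Ifitm2, an interferon-induced membrane protein gene, was lower, at 2.99 and 5.95 CPM in RT day 1 and 53.6 and 119.6 CPM in NT day 1 (-4.12, adjusted p = 0.0492). Both calls were lost under several alternatives. Ifitm2 was at -1.36 (adjusted p = 0.960) with cells thinned, and at -3.77 (adjusted p = 0.337) with the stricter gate, where Malat1 was at 0.71 (adjusted p = 0.891). The adjusted p of Ifitm2 was 0.229, 0.199 and 0.0801 without RT day 1 replicate 1, RT day 1 replicate 2 or NT day 1 replicate 2, and that of Malat1 lay between 0.0897 and 0.293 without any 1 of the 4 day 1 pools. DESeq2 did not call Malat1 (adjusted p = 0.0875), and with the replicate number as a block both had an adjusted p of 0.0525 in edgeR. With pools joined by the shared tag both had an adjusted p of 0.9997 in edgeR.

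The interferon-stimulated list had a median of 1.21 in irradiated cells at day 1, with 24 of 25 genes above 0 and 0 passed. Its summed level in progenitor-like cells was 23576 unscaled CPM in RT+FTY720 day 3, 8065 in FTY720 day 3, 18999.6 in RT day 3, 8843 and 4584 in NT day 3, 9350.1 and 8330.1 in RT day 1 and 4469.6 and 3997 in NT day 1. The 2 highest sums were thus in irradiated day 3 pools, of 8 and 5 cells. Their wells were apart from those of NT day 3 and the day 1 conditions, and also held FTY720 day 3. The cell cycle list had a median of -1.29 with 0 of 19 genes above 0 and 0 passed.

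**Figure D2:**
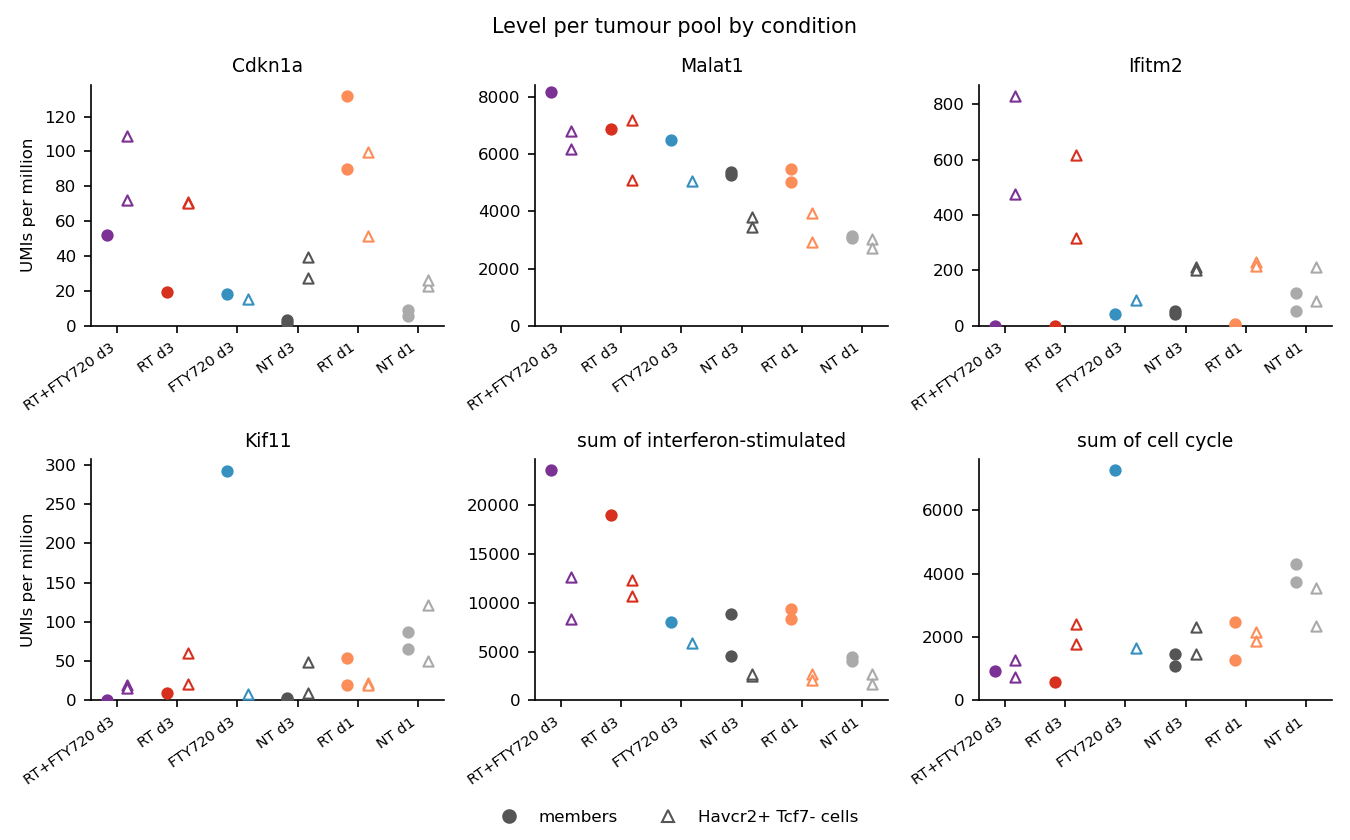
Levels per tumour pool by condition in unscaled CPM (UMIs per 1000000 of the sum), for progenitor-like cells (members, filled circles) and Havcr2+ Tcf7- cells (open triangles). Cdkn1a in progenitor-like cells is at 131.9 and 90.1 in RT day 1 and at 9.16 and 5.49 in NT day 1, and the interferon-stimulated sum is highest in RT+FTY720 day 3.

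Between unirradiated tumours, NT day 3 against NT day 1 gave 4 of 7726 genes (0.0518%), 2 (0.0259%) higher and 2 (0.0259%) lower, and 556 (7.2%) had an unadjusted p below 0.05. Malat1 was at 5576 and 5469 CPM in NT day 3 and at 3121 and 3128 CPM in NT day 1 (log2 fold change 0.82, adjusted p = 0.0354), and the other higher gene was a TCR variable segment. The mitotic genes Kif11, a spindle motor, and Knl1, a kinetochore scaffold, were lower. Kif11 was at 3.42 and 1.35 CPM in NT day 3 and at 88.6 and 64.8 CPM in NT day 1 (-5.13, adjusted p = 0.0411), and Knl1 at 0 and 2.70 CPM against 83.9 and 58.4 CPM (-5.05, adjusted p = 0.0354). None of the 3 calls stayed on leaving out each pool in turn. Kif11 (adjusted p 0.0886 to 0.177) and Knl1 (0.0605 to 0.0837) were lost without NT day 1 replicate 1 or either NT day 3 pool, with Knl1 at -8.39 without NT day 3 replicate 2, and Malat1 (0.0724 to 0.241) without either NT day 1 pool or NT day 3 replicate 1. In the cells without Ccr7 Kif11 was at -3.09 and Malat1 at 0.57 (adjusted p = 0.9998 each), and with the stricter gate all 3 had an adjusted p of 0.870. With the replicate number as a block the adjusted p of Kif11 was 0.105 and that of Knl1 and Malat1 was 0.0617. With pools joined by the shared tag the adjusted p was 0.405 for Kif11, 0.724 for Knl1 and 0.762 for Malat1. The 2 comparisons share the NT day 1 pools. The cell cycle list, which does not hold these genes, had a median of -2.20 with 0 of 19 passed and 0 of 19 above 0, and a median of -1.53 over 15 genes in cells without Ccr7. Kif11 RNA came from few cells, with a UMI in 4 of 14 and 8 of 37 cells in NT day 1 and in 1 of 14 and 1 of 35 in NT day 3.

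Progenitor-like cells made up 6.67% and 17.4% of CD8 T cells in the 2 pools of RT+FTY720 day 3, 8% and 11.5% in FTY720 day 3, 17.9% and 8.16% in RT day 3, 8.43% and 10.1% in NT day 3, 12.3% and 15.7% in RT day 1 and 11.8% and 10.9% in NT day 1. Irradiated pools averaged 13.0% ± 4.78 and unirradiated pools 10.1% ± 1.58 (SD, n = 6 each), a difference of 2.90 percentage points (exact permutation test within day and FTY720, two-sided p = 0.259, 0.346 adjusted over 4 share tests, smallest possible p 0.00926). At day 3, pools with FTY720 averaged 10.9% ± 4.79 and pools without it 11.1% ± 4.56 (SD, n = 4 each, exact permutation p = 0.833, smallest possible p 0.0556). The irradiation difference did not pass its test, and the FTY720 test could not reach 0.05.

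By matrix colour, progenitor-like cells were 9.19% ± 4.37 of red and 13.8% ± 7.41 of green CD8 T cells (SD, n = 12 pools), lower among red cells in 8 of 12 pools. The difference of -4.65 percentage points did not pass (two-sided p = 0.113 by exact sign flips over pools, adjusted 0.226), and it was 1.39 with all cells thinned to 10000 UMIs and 0.552 by label colours. This test pairs the red and green cells of a pool. That pairing is uncertain, because alpha and beta pairs were shared 6 times within pools and 64 times across replicate number and colour. The difference with replicates summed per condition is given below. Among Pdcd1+ CD8 cells the shares by matrix colour were 14.4% ± 5.46 red and 20.5% ± 10.6 green (SD, n = 11, exact p = 0.108, adjusted 0.226), and the difference turned from -6.08 to 2.18 percentage points by label colours (exact p = 0.573). The direction between the colours therefore depends on the source of colours and on thinning. With matrix colours and all cells thinned, the difference among Pdcd1+ cells was 2.12 points (exact sign-flip p = 0.655). The pooled red share of neighbouring classes also changed with the source. Cells with Tcf7, Pdcd1 and Havcr2 were 87.1% red by matrix names and 41.1% red by label colours, and cells with Pdcd1 alone were 32.0% and 60.0% red. By matrix names 872 CD8 T cells were red and 694 green. In replicate 1, where the sources matched, cells with Tcf7, Pdcd1 and Havcr2 were 14 red and 0 green in NT day 1. They were 14 and 1 in RT day 1, 5 and 2 in NT day 3 and 3 and 0 in RT day 3. FTY720 day 3 had 0 and 1, and RT+FTY720 day 3 had 3 and 0. Cells with Pdcd1 alone were 2 and 17, 15 and 1, 12 and 14, 1 and 3, 1 and 6 and 1 and 7 in the same order. In replicate 2 by matrix names, cells with Tcf7, Pdcd1 and Havcr2 were 35 red and 6 green in NT day 1. They were 22 and 4 in RT day 1, 8 and 1 in NT day 3 and 2 and 1 in RT day 3. FTY720 day 3 had 0 and 0, and RT+FTY720 day 3 had 2 and 0. Cells with Pdcd1 alone were 9 and 20, 3 and 19, 13 and 30, 2 and 1, 2 and 7 and 3 and 11. Label colours swap red and green in replicate 2. Which source is right was not tested.

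**Figure D3:**
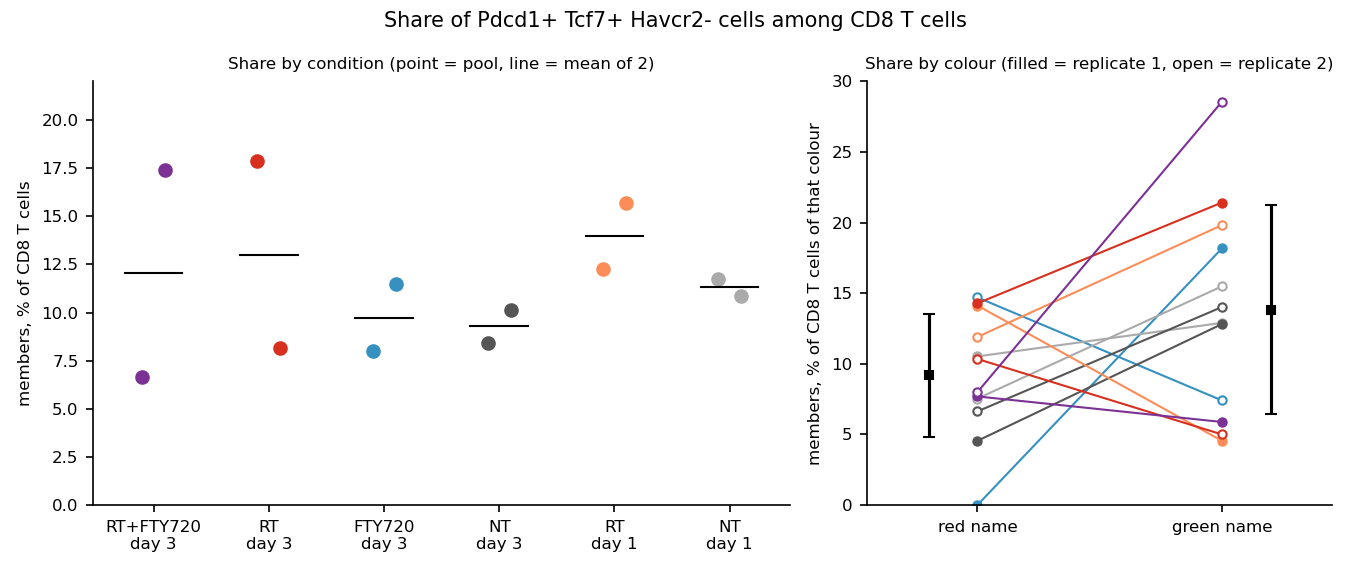
Progenitor-like cells (members) as a percentage of CD8 T cells, left by condition with a point for each of the 2 pools, right by matrix colour with a line for each of the 12 pools. Pools run over 6.67% to 17.9%, and the red share is below the green share in 8 of 12 pools.

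The TCR beta chain, read in a separate library, was found in 173 of the 180 cells. Grouped by identical beta nucleotide sequence within a pool, they fell into 161 clones, of which 116 held 1 cell and 45 held 2 or more CD8 or other cells, with 57 progenitor-like cells in them. Only 11 clones held 2 or more progenitor-like cells, and the most in a clone was 3. In 8 pools, 37.7% ± 23.3 of progenitor-like cells and 55.4% ± 14.3 of Havcr2+ cells were in clones of 2 or more cells (SD), lower for progenitor-like cells in 7 of 8 pools. The difference did not pass (exact sign-flip permutation p = 0.133), and it passed without RT+FTY720 day 3 replicate 2, where 7 of 8 progenitor-like cells were in clones (-26.9 points, exact p = 0.0156).

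Clones joined progenitor-like cells to other CD8 states. Of the 45 clones, 18 also held a Havcr2+ cell, 17 a cell with Pdcd1 alone, 13 a Pdcd1- cell, 8 a cell with Tcf7 and Havcr2 both, and 1 a cell outside the CD8 gate. Within the pool, 11.1% ± 9.29 of progenitor-like cells shared a beta sequence with a Havcr2+ cell, against 0 of 161 cells (which allows a share of up to 1.86%) with Havcr2+ cells of the other pools of the well. The share was above 0 in 6 of 8 pools. Since the share with other pools was 0 in every pool, no test is given. Of the 45 clones 44 were of a single matrix colour. Clones were grouped within a pool, where red and green samples shared 6 alpha and beta pairs. Samples of the other replicate number and the other colour shared 64. The count of single-colour clones therefore does not show how far red and green cells shared receptors.

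Some clones are shown by the nucleotide sequence of the beta CDR3, because they hold progenitor-like cells beside other states. Capitals mark the bases between the stretch common to the V gene and the stretch common to the J gene:
NT day 3 replicate 1, TRBV16 TRBJ2-7: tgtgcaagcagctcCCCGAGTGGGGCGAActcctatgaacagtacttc
RT day 1 replicate 1, TRBV17 TRBJ2-1: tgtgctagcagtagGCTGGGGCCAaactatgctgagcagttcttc
RT day 1 replicate 2, TRBV19 TRBJ2-7: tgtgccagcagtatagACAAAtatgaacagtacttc
RT+FTY720 day 3 replicate 2, TRBV19 TRBJ2-7: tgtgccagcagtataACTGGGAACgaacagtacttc
NT day 3 replicate 2, TRBV29 TRBJ2-3: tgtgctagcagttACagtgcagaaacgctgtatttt
NT day 1 replicate 2, TRBV1 TRBJ2-3: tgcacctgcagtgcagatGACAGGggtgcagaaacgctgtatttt
The TRBV16 clone was the largest, with 14 red cells that spanned 2 progenitor-like cells, 4 Havcr2+ cells, 3 with Tcf7 and Havcr2, 2 with Pdcd1 alone, 2 Pdcd1- cells and 1 with neither Tcf7 nor Pdcd1. Its sequence was also in 6 green cells of NT day 3 replicate 2, among them 1 progenitor-like and 3 Havcr2+ cells. The TRBV17 clone held 1 progenitor-like and 5 Havcr2+ cells of 7, all red. The TRBV19 clone of RT day 1 held 1 progenitor-like cell, 5 cells with Pdcd1 alone and 2 Pdcd1- cells, and its sequence stood in 3 other pools. The TRBV19 clone of RT+FTY720 day 3 held 2 progenitor-like cells and 2 with Pdcd1 alone. The TRBV29 clone held 3 progenitor-like cells and 1 Pdcd1- cell, and the TRBV1 clone 2 progenitor-like cells, 1 Havcr2+ cell and 1 with neither Tcf7 nor Pdcd1.

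**Figure D4:**
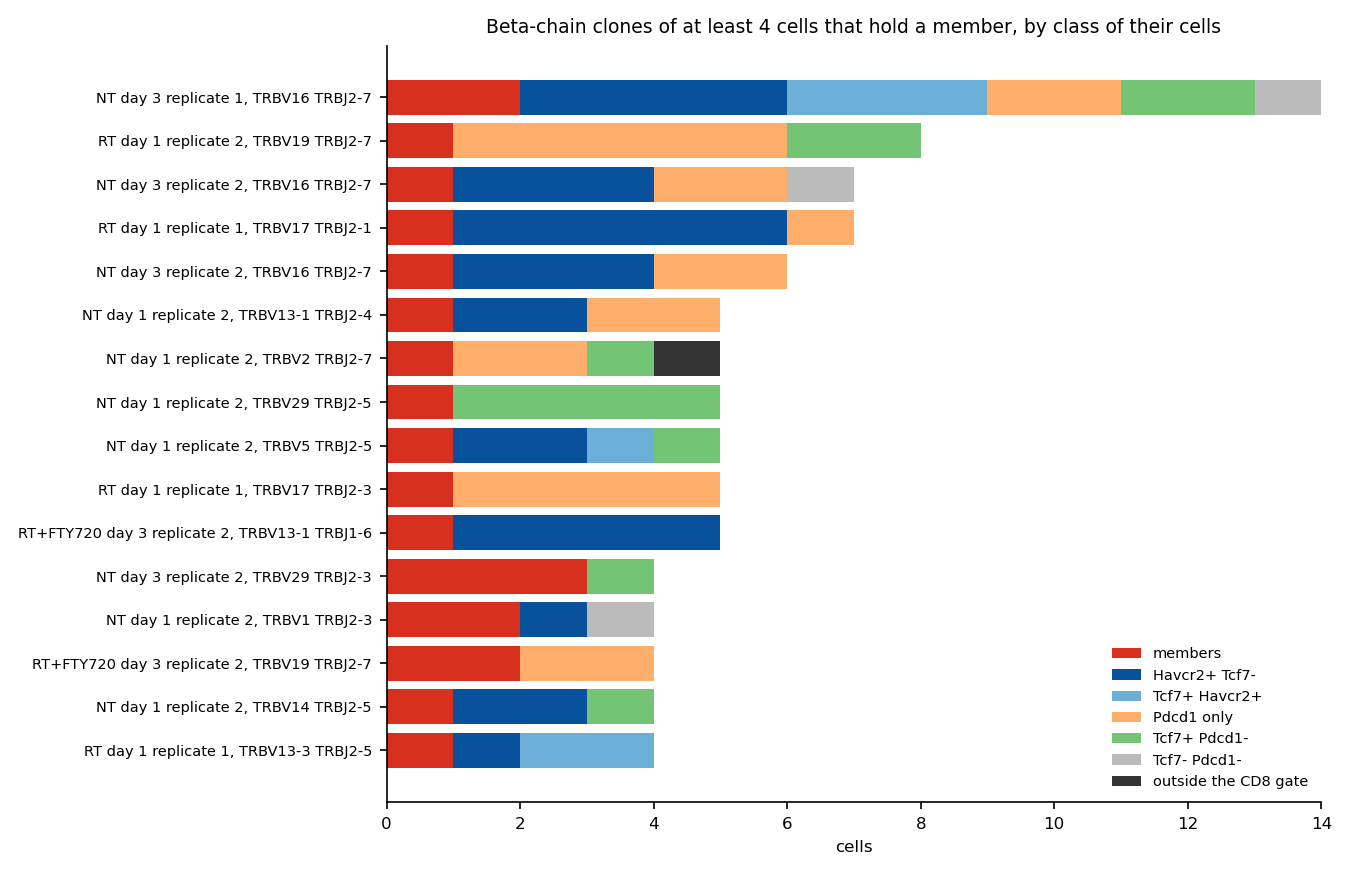
Cells of each clone of at least 4 cells that held a progenitor-like cell (member), by pool and beta chain genes, with bar segments for the cell class. The 16 clones hold up to 14 cells and 1 to 3 progenitor-like cells each.

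Over all 173 cells the TRBV genes were spread, with 18 cells each (10.4%) for TRBV19 and TRBV29, 17 for TRBV1 and 15 for TRBV13-3, and 20 of the beta sequences were also in another pool.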

How the data were processed

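The authors deposited raw UMI counts for genes and hashtags in each cell barcode, from Cell Ranger 8.0.1 per the file headers and on mm39 per the submitters' processing notes. Their TCR contig tables, also deposited, give read and UMI counts. Of 2816 barcodes called as cells, 76 were left out by the gene and mitochondrial limits. All kept cells were assigned by a top hashtag of at least 20 UMIs and 3 times the next. Free RNA was not removed, no doublet caller was run, and 10 progenitor-like cells had 2 or more beta chains, left out as an alternative. No genome was used.

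Counts were summed per tumour pool and class (at least 5 cells) and tested with edgeR 4.0.16 (limma 3.58.1, R 4.3.3) glmQLFit and glmQLFTest after TMM and filterByExpr, with Benjamini-Hochberg adjustment over all genes tested and the pool as a block where classes or colours of a pool were compared. RT day 1 and NT day 3 were each set against NT day 1 in a fit of 6 pools. DESeq2 1.42.0, no filter, stricter gates, thinned counts and leaving out each pool were among the alternatives, and the subset without Ccr7 was added after the data were seen. Some genes are not reported here. Shares and clones were tested by exact permutation over pools (scipy 1.17.1), and counting intervals and floors cover counting error only. The labels do not tie pools to mice beyond 4 a pool, and so p-values cover only how these pools vary, which may be technical. The gene tests were tested on simulated data. At a log2 fold change of 1 they recovered 72% of changed genes against Havcr2+ cells and 59% against Pdcd1- cells. They recovered 14% between colours, 10% for the difference of colour effects and 13% for RT against NT at day 1. At a log2 fold change of 2 the shares were 89%, 92%, 77%, 64% and 77% in that order. Unchanged genes called in the same simulations numbered 15, 7, 9, 1 and 12, again in that order.

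The progenitor-like cells, gene lists and tests were chosen with earlier results of these data known. Genes are named where they were among the 10 largest changes a direction with that direction in 80% of pools, or on a list, and a selection of those is given, with rule genes, TCR and immunoglobulin segments and unnamed models left out. The replicate number marks a shared 10x well per the labels. Same-number pools correlated at -0.0054, -0.0367 and 0.0519 over 7730 genes in their deviations from condition means.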

Additional observations from a re-analysis of the deposited data

Results flagged for a closer look

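Of 193 groups of pools, 32 had 1 pool far from the others, where chance gives about 5%. RT day 3 replicate 1, with 5 progenitor-like cells, stood apart most often, and its weight in the results is in the values that leave out a pool. In CPM, among progenitor-like cells set against Havcr2+ cells it was high for Gpr183 (587), Icos (384), Trim30c (212) and Prdm1 (70.8). Among those set against Pdcd1- cells it was high for Mx1 (959.9), Ifit1 (979) and Isg15 (1968). Its Havcr2+ cells were high for Gzmb (6522), Il2ra (624) and Mx1 (297), low for Cd44 (289) and had no Lef1 (0), and its Pdcd1- cells were high for Lag3 (57.3).

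The other progenitor-like cell sums that stood apart were high. They were Gzma (137 and 135 in the first and second comparison) and Ctla4 (359) in RT day 1 replicate 2, and Gzmc (12.4) in NT day 1 replicate 2. They were also Ccl3 (408) and Egr2 (50.5) in NT day 3 replicate 1, Spp1 (1.33, from 1 UMI) in NT day 3 replicate 2, Ccr8 (184 and 179) in FTY720 day 3 replicate 2 and Il2ra (179) in NT day 1 replicate 1. Among Havcr2+ cells, RT day 1 replicate 2 was high for Klf3 (10.7), Ifng (11948) and Ccl3 (9627), RT day 1 replicate 1 for Il2 (597), and RT+FTY720 day 3 replicate 2 for Tnfrsf9 (1779). Among Pdcd1- cells, RT day 1 replicate 1 was high for Ctla4 (168), RT day 1 replicate 2 for Gzma (510.0) and Tnfrsf4 (6.19), and FTY720 day 3 replicate 2 was low for Ccr7 (108).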

How the results depend on the processing

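Against Havcr2+ cells 1450 genes passed, and 828 with at least 2 UMIs of Pdcd1 and Tcf7, 406 in red and 639 in green cells, and 272 and 613 in red and green cells by label colours; these use fewer cells, and leaving out 1 pool gave 1035 to 1457. With pools joined by tag 1377 passed and with replicates summed 1330, 1201 of the 1450 in each case. Against Pdcd1- cells 464 passed, 983 with no filter, 753 with at least 10 cells a sum and 698 with pools joined by tag (246 to 691 leaving out 1 pool). The colour comparison gave 0, but 4 with DESeq2, 173 with no filter, 3 with the stricter gate, 1 thinned, 4 by shared tag, 37 with replicates summed and 0 leaving out any pool; the difference of colour effects gave 0, but 19 with DESeq2, 111 with no filter and 0 to 2 leaving out a pool. RT against NT at day 1 gave 3, but 12 with DESeq2, 216 with no filter, 0 with the stricter gate, thinned, without Ccr7 cells or by shared tag, 2 with the replicate block and 0 to 16 leaving out a pool. NT day 3 against NT day 1 gave 4, but 16, 252, 0 with the stricter gate, thinned, without Ccr7 cells or by shared tag, 1 with the replicate block, and 2 to 28. The cause of these shifts was not tested beyond the smaller numbers of cells. Genes that reversed against Havcr2+ cells were Ccr7 (-7.32 without Ccr7 cells, by construction), Nfkbid (0.66) and Nr4a1 (0.10) in green cells, and Cd74 (0.019) and Tnfrsf4 (0.19) in red cells by label colours; against Pdcd1- cells, Slamf6 (-0.77 without Ccr7 cells).

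The red minus green share of CD8 T cells was -4.92 points with replicates summed (exact permutation p = 0.03125, 6 conditions) and -5.94 to -3.20 leaving out a pool; among Pdcd1+ cells -7.91 to -4.44. Without RT day 1 replicate 1 both passed (-5.94, exact p = 0.0400, and -7.91, exact p = 0.0430). Irradiated minus unirradiated was 1.11 to 4.69 and FTY720 minus none -2.95 to 2.42, and with the replicate block the exact p was 0.219 and 0.875. The clone share difference was -30.0 with at least 10 cells and -23.1 by shared tag (exact p = 0.03125 each), and -26.9 to -14.2 leaving out a pool. Sharing with Havcr2+ cells was 11.2 points with the stricter gate, 8.52 with replicates summed and 9.10 to 12.7 leaving out a pool. The replicate numbers did not pair the pools, and TCR pairs crossed them. Of 111 named genes called against Havcr2+ cells 102 stayed called on leaving out each pool, and of 62 against Pdcd1- cells 45 did.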

Other observations

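Progenitor-like cells of FTY720 day 3 replicate 2, which entered no gene test between conditions, had the highest summed cell cycle list, at 7267 CPM over 7 cells. RT+FTY720 day 3 had 942, RT day 3 567, NT day 3 1461 and 1099, RT day 1 1282 and 2487, and NT day 1 4307 and 3734. Of its Kif11 RNA, all 48 UMIs came from 2 of the 7 cells.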
